A study of Danio rerio with 6 samples.

Results

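The cytosolic ribosomal protein genes were the rows of the expression table whose symbol began with rpl, rplp or rps and a digit, or was rpsa. The rps6k symbols, which belong to S6 kinases, were left out. The rule found 81 of the 10232 genes in the table. Of these, 34 encode proteins of the small subunit, 43 encode proteins of the large subunit and 4 (rplp0, rplp1, rplp2 and rplp2l) encode proteins of the stalk, the arm of the large subunit to which elongation factors bind. The rule uses symbols alone and no measured value.

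The study asked what the clock factor Bmal1 does in endothelial cells (ECs) of the caudal haematopoietic tissue (CHT), the site in the zebrafish tail where blood stem and progenitor cells settle and multiply. CHT regions were dissected from embryos at 36 hours post fertilisation (hpf), about 5000 GFP-positive cells were sorted per sample, and total RNA was sequenced in bulk. There were 3 DN-bmal1a libraries (flk1:GFP reporter with the flk1:GAL4 driver and UAS:DN-bmal1a) and 3 control libraries (flk1:GFP with UAS:DN-bmal1a and no driver). Each library was made from a pool of embryos. flk1 is an older name of kdrl, a vascular endothelial growth factor receptor gene whose promoter is active in ECs. GAL4 switches on sequences placed behind UAS, so that both groups carried the transgene for the dominant-negative protein and the flk1:GFP reporter, and DN-bmal1a embryos alone carried the driver. The protein was thus made where the flk1 promoter was active, and not by the cell type as such. Embryos were of the AB* background and were kept in PTU, which blocks pigment.

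Ribosomal proteins assemble with ribosomal RNA in the nucleolus into a small subunit, which reads the mRNA, and a large subunit, which joins the amino acids. Each ribosome needs 1 copy of nearly every protein, and the genes are expressed together at high levels in growing cells. Their mRNAs begin with a run of pyrimidines (the TOP motif) through which the kinase mTOR sets their translation, so that the mRNA level is only part of what decides protein output. In humans, loss of 1 copy of some of these genes causes Diamond-Blackfan anaemia, a failure of red blood cell formation, and free RPL5 and RPL11 can bind the ubiquitin ligase MDM2.

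Values are in CPM, reads per 1000000 of a library size that the authors had scaled with edgeR's TMM factors. CPM is not divided by transcript length, so that levels are compared between libraries here and not between genes. The reads recovered from the values numbered 26161915 to 55004237 per library, of which 2796591 to 4717334 belonged to the 81 genes. Listed genes without any read numbered 722, 1760 and 865 in DN-bmal1a libraries 1, 2 and 3, against 696, 34 and 422 in control libraries 1, 2 and 3. DN-bmal1a library 2, the shallowest, lacked the most, but these numbers did not follow depth. Control library 2, with 37248181 reads, lacked 34, and DN-bmal1a library 3, the deepest with 55004237 reads, lacked 865. arntl1a, the symbol under which bmal1a is listed and which cannot separate transgene reads from those of the gene itself, had 42.9, 22.1 and 55.5 CPM in the DN-bmal1a libraries, against 20.6, 16.8 and 3.28 CPM in the controls, with no overlap between groups. Endothelial markers (21 of 26 listed, none at 0) summed to 7169 to 9932 CPM in DN-bmal1a, against 13056 to 15330 CPM in the controls. Erythroid markers (14 of 20 listed) summed to 5008 to 7410 CPM in DN-bmal1a, against 1237 to 4205 CPM in the controls. The erythroid regulator gata1a was at 0 in DN-bmal1a libraries 1 and 2, and no erythroid marker was at 0 in a control. Epidermal markers (16 of 17 listed) summed to 10919 to 15498 CPM in DN-bmal1a, against 16227 to 17536 CPM in the controls. That sum exceeded the endothelial one in every library, but the lists hold different genes, so that the sums do not rank the cell types. Neural markers (7 of 12 listed) summed to 37.8 to 43.7 CPM in DN-bmal1a, against 73.4 to 111 CPM in the controls. Myeloid marker sums overlapped between the groups (6502 to 9985 CPM in DN-bmal1a, 6681 to 11538 CPM in the controls). So did those of blood progenitors (3476 to 4958 against 3268 to 4985 CPM) and muscle (1074 to 4847 against 1571 to 5900 CPM). Neural crest and pigment sums overlapped as well (5.83 to 137 against 21.6 to 37.2 CPM). The epidermal markers cdh1 and cldne were at 0 in DN-bmal1a library 2 and agr1 in DN-bmal1a library 3, and 2 to 4 neural markers were at 0 in each DN-bmal1a library and none in a control. In bulk RNA, fewer cells of a type and less RNA of its markers per cell cannot be told apart. All fold changes below are DN-bmal1a over control on the log2(CPM + 1) scale, tested with limma over all 10232 genes with Benjamini-Hochberg adjustment. A gene was called at an adjusted p under 0.05 and a change of at least 2-fold. Replicate samples were separate libraries, and whether embryo pools shared a clutch or day is not stated, so that p-values measure the spread between these libraries.

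As a group, the ribosomal protein genes stood somewhat higher in DN-bmal1a than in control libraries, with overlap between the groups. They took 8.61%, 10.7% and 8.58% of the CPM in DN-bmal1a libraries 1, 2 and 3, against 8.73%, 7.58% and 6.60% in control libraries 1, 2 and 3. Control library 1 lay within the DN-bmal1a range and DN-bmal1a library 2 lay above all others. The mean share was 9.29% ± 1.21 in DN-bmal1a and 7.64% ± 1.07 in the controls (SD, n = 3 each), a ratio of 1.22. The summed level was 86078, 102535 and 83843 CPM in the DN-bmal1a libraries, against 90677, 75565 and 67984 CPM in the controls, and control library 1 was again above 2 of the 3 DN-bmal1a libraries. Low endothelial, epidermal and neural and high erythroid marker sums went with DN-bmal1a across all 6 libraries, while the ribosomal protein sum did not separate the groups. Nor did the myeloid, blood progenitor, muscle and pigment marker sums. The part of these cell types in the ribosomal protein sums was not tested.

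The 81 genes moved together from library to library. For each gene, the deviation of a library from that gene's mean over the 6 libraries was taken on the log2 scale. The median deviation over the 81 genes was 0.05, 0.35 and 0.02 in DN-bmal1a libraries 1, 2 and 3, against 0.09, -0.19 and -0.32 in control libraries 1, 2 and 3. In DN-bmal1a library 2, 80 of the 81 genes lay above their own mean, and in control library 3 only 1 did. DN-bmal1a library 2 held the highest value of 68 of the genes (21.7% of all genes peaked there), and control library 3 held the lowest value of 73 (16.7% of all genes). The library with the most genes without reads was thus also the one with the highest ribosomal protein level. The part of its depth, or of its missing genes, in that level was not tested.

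**Figure D1:**
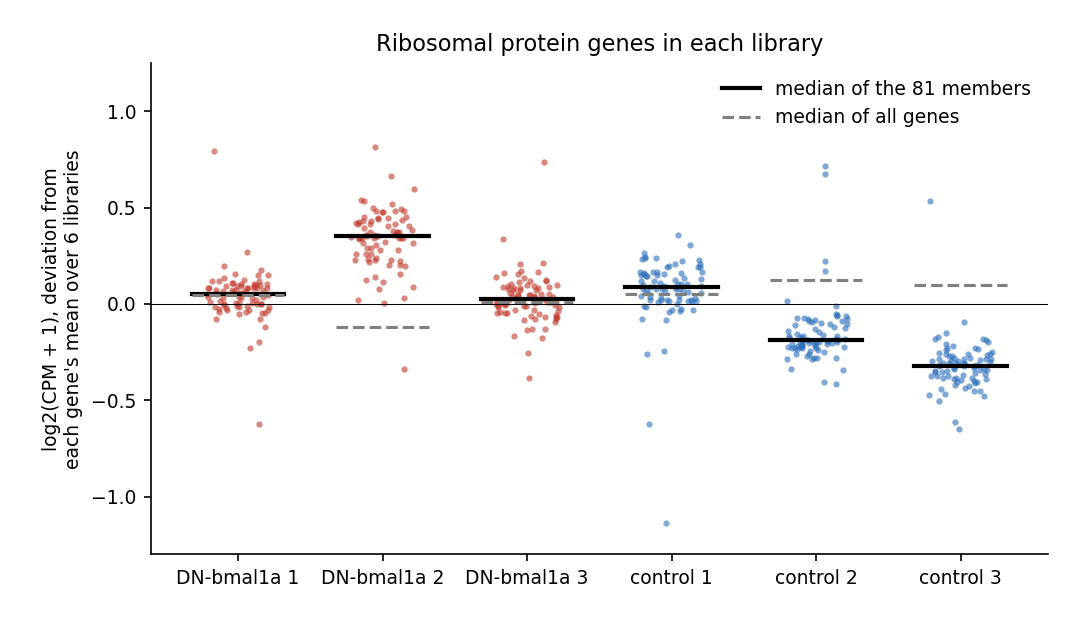
Each point is 1 of the 81 ribosomal protein genes in 1 library, as its deviation from the gene's own mean over the 6 libraries on the log2(CPM + 1) scale. Solid bars are the median of the 81 genes and dashed bars the median of all 10232 genes. The 81 genes sit highest in DN-bmal1a library 2 (median 0.35) and lowest in control library 3 (median -0.32), while control library 1 (median 0.09) sits beside DN-bmal1a libraries 1 and 3.

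None of the 81 genes was called as different (1 gene, 0.00977% of all genes, was called). The lowest adjusted p was 0.365, for rps26l. At an unadjusted p under 0.05, 7 members were higher (3.10% of all genes) and 0 lower (8.12% of all genes). edgeR's quasi-likelihood test on the recovered reads also called 0 members (0 of all genes), with a lowest adjusted p of 0.496 among the members and 8 members higher at an unadjusted p under 0.05 (2.63% of all genes). DESeq2 called 0 members, with a lowest adjusted p of 0.122 for rpl8, while it called 187 of the 10022 genes it tested (1.87%), and 23 members were higher at its unadjusted p under 0.05 (4.07% of all genes).

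What the genes shared was direction and a small size. The log2 fold change was above 0 for 76 of the 81 (41.9% of all genes), with a median of 0.28 and quartiles of 0.19 and 0.35. Over all genes the median was -0.13, with quartiles of -0.65 and 0.28. Among the 1774 other genes with at least 100 CPM on average, which are more alike in level to the family, the median was -0.02, 6.82% were higher at an unadjusted p under 0.05 (8.64% of the members) and 12.1% were higher without overlap (24.7% of the members). By subunit, the median was 0.24 for the small subunit, 0.31 for the large subunit and 0.09 for the stalk. For 20 members (24.7%) the lowest DN-bmal1a value was above the highest control value, against 7.00% of all genes, and for 0 members the highest DN-bmal1a value was below the lowest control value (10.7% of all genes). Those 20 comprised 15 genes of the large subunit and 5 of the small subunit. Because the members moved together, these counts are not those of 81 separate measurements.

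The counts hung on single libraries. Without control library 1, 69 of the 81 genes were higher without overlap (11.2% of all genes), 33 were higher at an unadjusted p under 0.05, and the median was 0.40. Without DN-bmal1a library 2, the median was 0.16 and 1 gene was higher at an unadjusted p under 0.05. Without control library 3, the median was 0.19 and 0 genes passed the unadjusted threshold. Without control library 2, 1 gene passed it. The shares of all genes passing this threshold in these fits are not given here, so that the counts lack a background. Without DN-bmal1a library 3, 31 members did not overlap (11.4% of all genes). The median stayed above 0 with each library left out, between 0.16 and 0.40, and no member was called in any of these 6 fits.

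**Figure D2:**
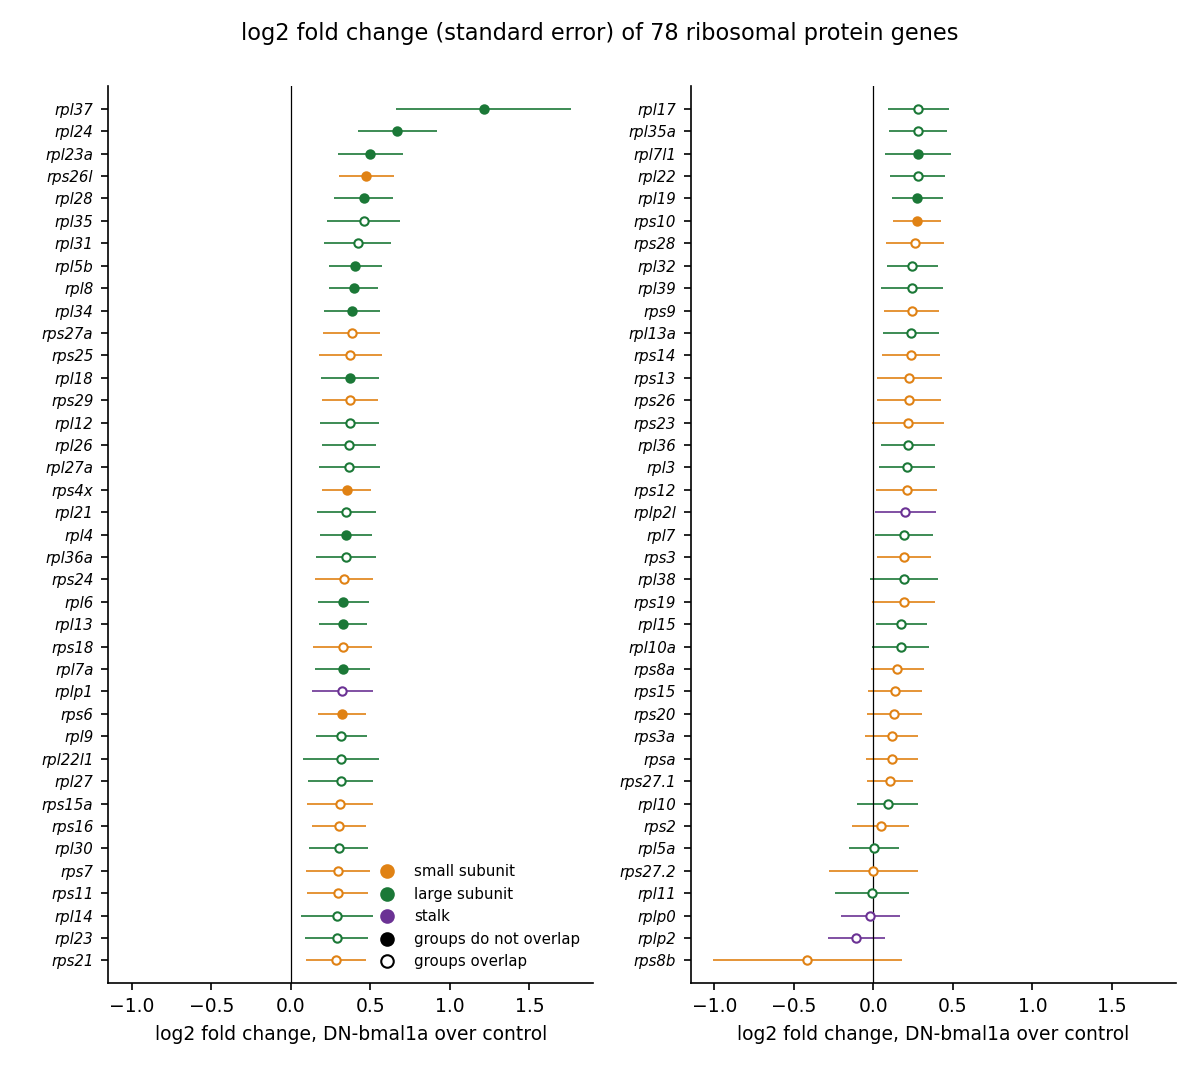
log2 fold change, DN-bmal1a over control, of 78 of the ribosomal protein genes on the log2(CPM + 1) scale, with limma's standard error, sorted by size and coloured by subunit. Filled points are the 18 genes shown whose 3 DN-bmal1a libraries all lay above the 3 control libraries, and 73 of the 78 points lie above 0.

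Among large subunit genes with groups that did not overlap, rpl24, rpl23a, rpl28, rpl5b, rpl8, rpl34 and rpl37 had the largest fold changes. rpl24, whose protein forms a bridge to the small subunit, had 363, 594 and 357 CPM in DN-bmal1a libraries 1, 2 and 3, against 341, 254 and 220.1 CPM in control libraries 1, 2 and 3. DN-bmal1a library 2 stood well above the others, and the gap between DN-bmal1a library 3 and control library 1 was narrow. Its log2 fold change was 0.67 (standard error, SE, 0.25, limma adjusted p = 0.367), between 0.43 and 0.84 with 1 library left out. rpl23a, whose protein lines the exit of the tunnel through which the new chain leaves, had 551, 882 and 596 CPM in DN-bmal1a, against 525, 464 and 420.4 CPM in the controls. DN-bmal1a library 2 again stood apart, and the log2 fold change was 0.50 (SE 0.20, adjusted p = 0.412 in limma).

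rpl28 had 513, 612 and 459 CPM in DN-bmal1a, against 453, 379 and 324 CPM in the controls. The groups were parted by the few CPM between DN-bmal1a library 3 and control library 1 (log2 fold change 0.46, SE 0.19, adjusted p = 0.410 in limma). rpl8, which lies beside the catalytic centre, had 1335, 1531 and 1218 CPM in DN-bmal1a, against 1119.8, 1024 and 954 CPM in the controls. Here no single library set the difference, and the log2 fold change was 0.40 (SE 0.16, adjusted p = 0.395 in limma), between 0.31 and 0.47 with 1 library left out. rpl34 had 896, 1133 and 872 CPM in DN-bmal1a, against 852, 728 and 643 CPM in the controls, a log2 fold change of 0.38 (SE 0.17, adjusted p = 0.458 in limma). The groups were parted by the gap between DN-bmal1a library 3 and control library 1, as for rpl24 and rpl28.

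rpl3, which helps to shape the catalytic centre and was among the 4 members with the most reads, had 4202, 4614 and 3939 CPM in DN-bmal1a, against 4393, 3600.5 and 3124 CPM in the controls. Control library 1 lay above 2 of the DN-bmal1a libraries, and the log2 fold change was 0.21 (SE 0.18, adjusted p = 0.692 in limma). rpl10, one of the last proteins to join the large subunit, had 1131, 1229 and 1132 CPM in DN-bmal1a, against 1444, 989 and 911 CPM in the controls. The highest value of all was that of control library 1, and the log2 fold change was 0.09 (SE 0.19, adjusted p = 0.883 in limma). rpl10a, whose product is another large subunit protein despite the like name, had a log2 fold change of 0.17, with overlapping groups. The remaining large subunit genes, apart from rpl11, had log2 fold changes between 0.00 (rpl5a) and 0.46 (rpl35).

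Among small subunit genes, 5 had groups that did not overlap, among them rps26l, rps4x, rps6 and rps10. rps26l, a copy of rps26, whose protein lies where the mRNA leaves the ribosome, had 373, 453 and 379 CPM in DN-bmal1a, against 332, 268 and 267 CPM in the controls. All 3 DN-bmal1a libraries lay above the highest control, and the log2 fold change of 0.48 (SE 0.17, adjusted p = 0.365 in limma) stayed between 0.39 and 0.58 with 1 library left out. rps4x had 1636, 1985 and 1707 CPM in DN-bmal1a, against 1539, 1293 and 1346 CPM in the controls. Its groups were parted by less than the range within either, and its log2 fold change was 0.35 (SE 0.16, adjusted p = 0.440 in limma). rps6, the substrate of the S6 kinases, had 1388, 1631 and 1393 CPM in DN-bmal1a, against 1302, 1152 and 1078 CPM in the controls, a log2 fold change of 0.32 (SE 0.15, adjusted p = 0.479 in limma). rps10, a protein of the subunit's head, had 808, 879.6 and 813 CPM in DN-bmal1a, against 775, 664 and 635 CPM in the controls, a log2 fold change of 0.27.

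The small subunit genes with the most reads had small fold changes. rps2, whose protein lines the channel where mRNA enters, had 5764, 6435 and 5951 CPM in DN-bmal1a, against 6863, 5897 and 4971 CPM in the controls. Both the highest and the lowest value were those of controls, and the log2 fold change was 0.04 (SE 0.18, adjusted p = 0.940 in limma). rps20, a protein of the head, had 4067, 4865 and 3876 CPM in DN-bmal1a, against 4419, 3847 and 3436 CPM in the controls, a log2 fold change of 0.13 with overlapping groups. rpsa, the ribosomal protein first described as a laminin receptor, had 3181, 3191 and 3009.8 CPM in DN-bmal1a, against 3374, 2795 and 2550.2 CPM in the controls. Its DN-bmal1a values lay close together within the range of the controls, and its log2 fold change was 0.12.

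The stalk genes did not share a direction. rplp0, whose protein anchors the stalk, had 5463, 5491 and 4613 CPM in DN-bmal1a, against 6427, 4881 and 4597 CPM in the controls. The DN-bmal1a range lay within that of the controls, and the log2 fold change was -0.02 as deposited and 0.04 and 0.05 after rescaling to the same sum or quantile normalization (as deposited, SE 0.19, adjusted p = 0.975 in limma). rplp2, which pairs with rplp1 on that anchor, had 881, 903 and 793 CPM in DN-bmal1a, against 1041, 1041 and 731 CPM in the controls. DN-bmal1a values lay between those of the controls, and the log2 fold change was -0.11 (SE 0.18, adjusted p = 0.848 in limma). rplp1 had 2530.3, 3029.5 and 2425 CPM in DN-bmal1a, against 2701, 1939 and 1811 CPM in the controls, a log2 fold change of 0.32 (SE 0.19, adjusted p = 0.564 in limma) with control library 1 inside the DN-bmal1a range. rplp2l, a second rplp2 gene, had a log2 fold change of 0.20, also with overlapping groups.

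Of the 81 genes, 79 had at least 100 CPM on average and at least 3236 reads in every library, so that counting error was small beside the spread of replicates. Their within-group SD on the log2 scale had a median of 0.22, against 0.28 for other genes of at least 100 CPM and 0.59 for all genes. limma's standard errors for these 79 genes ran from 0.15 to 0.28. The upper end of the 95% interval of the log2 fold change was below 1, a doubling, for 78 of the 79, and the exception was rpl24 (0.12 to 1.22). The lower end was above 0 for 7 of them (rpl24, rpl23a, rps26l, rpl28, rpl5b, rpl8 and rps4x). These are the same 7 members that were higher at an unadjusted p under 0.05, since the intervals are not adjusted for the number of genes. They are 8.86% of the 79, beside 6.82% of other genes of at least 100 CPM, and their lowest limma adjusted p was 0.365. The interval for rps2 was -0.35 to 0.44 and that for rplp0 was -0.44 to 0.40.

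The other 2 members had few reads. rpl37 had 24.3, 16.9 and 23.4 CPM in DN-bmal1a, against 5.65, 11.7 and 9.50 CPM in the controls, from 234 to 1316 reads per library. The groups did not overlap, and its log2 fold change of 1.21 was the largest of the family but had a standard error of 0.55 (limma adjusted p = 0.456) and a 95% interval of -0.02 to 2.45. rps8b, a copy of rps8a, had 0, 0.220 and 0.942 CPM in DN-bmal1a, against 0, 1.53 and 1.23 CPM in the controls. These values came from at most 62 reads per library, and no direction can be read from them (log2 fold change -0.42, SE 0.59). Reads of near-identical copies and pseudogenes of ribosomal protein genes may be assigned to either locus or dropped, so that the low levels of both rows are uncertain.

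**Figure D3:**
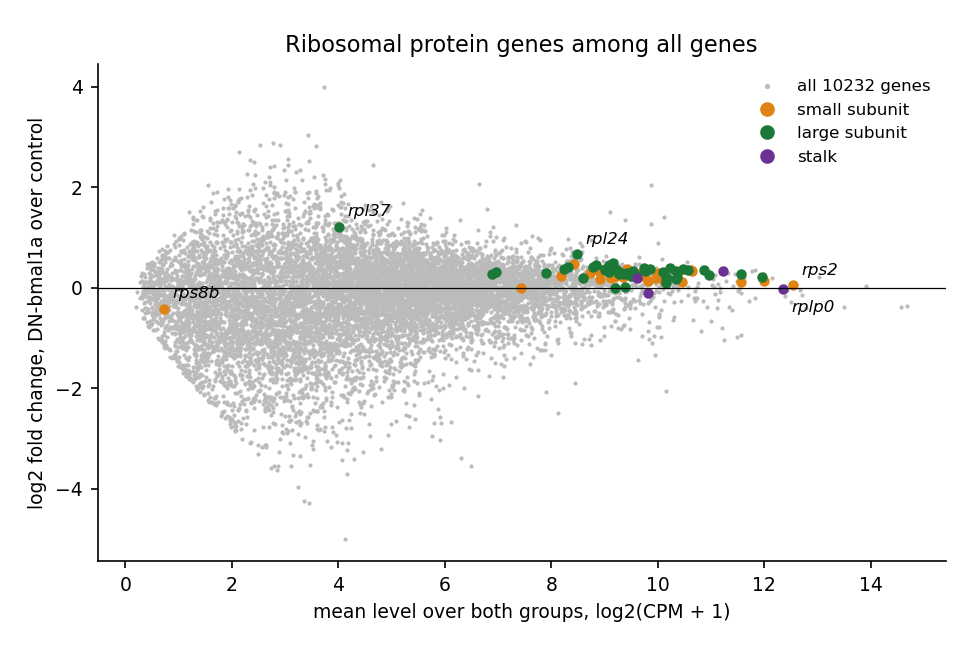
Mean level over both groups, log2(CPM + 1), against the log2 fold change, DN-bmal1a over control, for all 10232 genes (grey) and the 81 ribosomal protein genes (coloured by subunit). The family forms a narrow band at high levels, with quartiles of 0.19 and 0.35, and rpl37 (1.21) and rps8b (-0.42) lie apart at low levels.

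Since a common shift carries all members, each library was also centred on the median of the 81 genes, which asks how each gene stood relative to the family. No member was called on that scale (0.00977% of all genes were), and the lowest limma adjusted p was 0.387. In 71 of the 81 genes the centred log2 fold change was within 0.2 of 0. Because the members set this scale, it placed the middle fold change over all genes at -0.41. Shares of all genes without overlap are therefore pushed downward here and are no background for the members. Groups did not overlap for 10 members that stood higher (2.30% of all genes on this scale) and 10 that stood lower (16.7% of all genes). Those higher included rpl18, rpl23a, rpl24, rpl27a, rpl28, rpl34, rpl8, rps26l and rps29, and 8 of the 10 belong to the large subunit. Those lower were rpl10, rpl5a, rplp0, rplp2, rps2, rps20, rps27.1, rps3a, rps8a and rpsa, of which 6 belong to the small subunit and 2 to the stalk.

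The largest centred values were those of rpl24 (0.39, SE 0.20) and rpl37 (0.93, SE 0.60) on the higher side and those of rplp2 (-0.39, SE 0.18), rplp0 (-0.30, SE 0.17), rpl11 (-0.29, SE 0.20), rps27.2 (-0.28, SE 0.32) and rpl5a (-0.28, SE 0.16) on the lower side, leaving rps8b (-0.70, SE 0.67) aside for its few reads. Sums over each subunit are made of the same gene values and are no separate support for these differences. Members with the highest CPM weigh most in them, among them rps2, rplp0 and rps20, which stood lower after centring. The stalk genes held 11.2%, 10.2% and 10.2% of the family's CPM in DN-bmal1a libraries 1, 2 and 3, against 12.1%, 11.4% and 11.4% in control libraries 1, 2 and 3. The lowest control was above the highest DN-bmal1a library. The summed small subunit CPM was 0.916, 0.888 and 0.923 times the summed large subunit CPM in the DN-bmal1a libraries, against 0.965, 0.959 and 0.972 times in the controls, again without overlap. The large subunit sum leaves out the stalk genes here, and counting them in would narrow the gap. These ratios do not depend on the scaling of a library. They were looked at after the gene values had been seen and are given without a test.

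The table holds 7 pairs of ribosomal protein genes and their copies, and the ratio within a pair is free of a common shift as well. In 3 pairs the groups did not overlap, and the copy's share was higher in DN-bmal1a. rpl5b made up 43.1%, 44.7% and 41.3% of the summed CPM of rpl5a and rpl5b in DN-bmal1a libraries 1, 2 and 3, against 33.1%, 38.3% and 37.7% in control libraries 1, 2 and 3. rpl5b itself had 461, 591 and 462 CPM in DN-bmal1a, against 363, 416 and 357 CPM in the controls, while rpl5a had 609, 731 and 658 CPM in DN-bmal1a, against 734, 671 and 589 CPM in the controls. The difference of the log2 ratio was 0.40 and lay between 0.30 and 0.46 with 1 library left out (exact permutation over libraries, two-sided, gave p = 0.1, the lowest value possible with 3 against 3, or 0.233 when adjusted over the 7 pairs). rpl5b thus did not overlap between groups and rpl5a did.

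rps26l made up 57.9%, 55.5% and 55.8% of its pair with rps26 in DN-bmal1a, against 50.2%, 51.4% and 54.4% in the controls. The difference of the log2 ratio was 0.25 (between 0.20 and 0.32 with 1 library left out), with the same exact p. rplp2l made up 47.2%, 52.8% and 46.9% of its pair with rplp2 in DN-bmal1a, against 44.8%, 40.9% and 45.2% in the controls, a difference of 0.31 on the log2 scale (between 0.20 and 0.37), again with the same exact p. DN-bmal1a library 2 was the only one in which rplp2l exceeded rplp2.

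The other pairs did not separate the groups. The log2 ratio of rpl22l1 over rpl22 differed by 0.04 and that of rpl7l1 over rpl7 by 0.09 (exact permutation p of 0.7 and 0.9 before adjustment). rps27.2 made up 12.8%, 11.9% and 13.1% of its pair with rps27.1 in DN-bmal1a, against 10.7%, 20.2% and 11.0% in the controls, so that control library 2 alone stood apart. The pair rps8b and rps8a rested on the few reads of rps8b. The pairs were compared after the gene values had been seen, and reads that match both copies of a pair may have been split or discarded in counting.

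**Figure D4:**
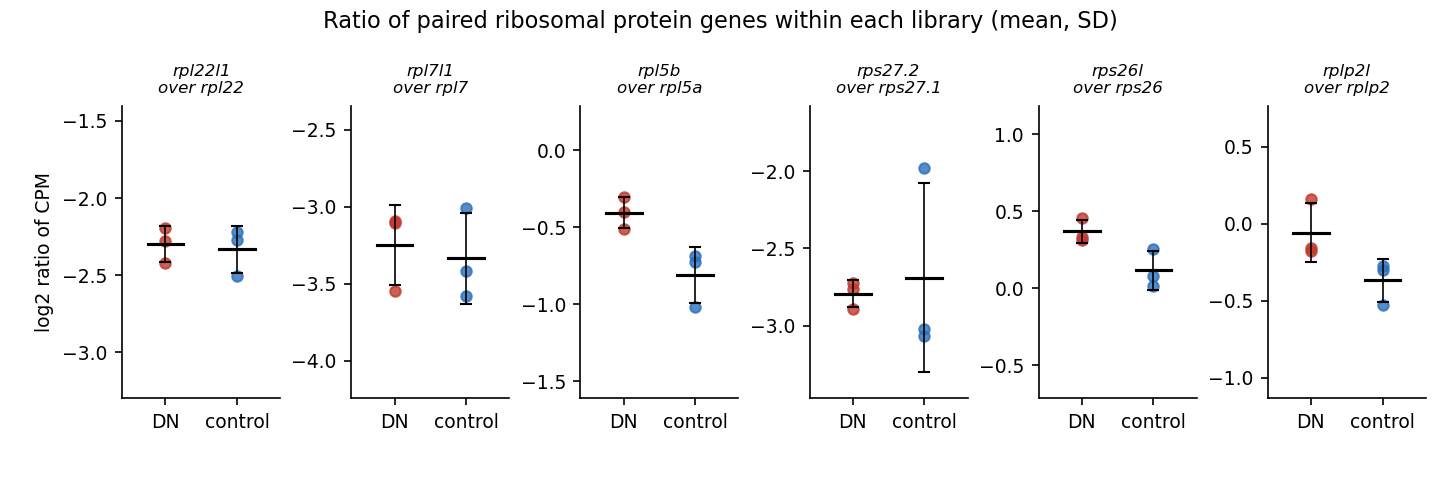
log2 ratio of CPM within each library for 6 pairs of ribosomal protein genes, with points for libraries and bars for the mean and SD of 3 DN-bmal1a libraries (left) and 3 control libraries (right) in each panel. The groups do not overlap for rpl5b over rpl5a, rps26l over rps26 and rplp2l over rplp2, with differences of 0.40, 0.25 and 0.31.

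A list of 18 members whose human counterparts are Diamond-Blackfan anaemia genes had a median close to that of the family. The 18 listed had a median log2 fold change of 0.28 and 17 were above 0. For 3 of them (rpl5b, rpl18 and rps10) the groups did not overlap, 16.7% against 24.7% of the family and 7.00% of all genes. The list may not hold every such gene. It holds both rpl5 copies but leaves out rps26l, whose groups did not overlap, and rps27.2, whose groups did. rps19, the gene most often affected in the disease, had 545, 729 and 498 CPM in DN-bmal1a, against 613, 468 and 466 CPM in the controls. DN-bmal1a library 2 stood above and the rest were mixed (log2 fold change 0.19, SE 0.20, adjusted p = 0.743 in limma). rps24 had a log2 fold change of 0.33 and rpl35a one of 0.28, both with overlapping groups. The other members of this list ran from -0.01 (rpl11) to 0.42 (rpl31).

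rpl5a, rpl5b, rpl11 and rpl23 have mammalian counterparts that bind MDM2. rpl11 had 545, 786 and 439.6 CPM in DN-bmal1a, against 637, 648 and 464 CPM in the controls, with DN-bmal1a library 2 the highest and library 3 the lowest of all 6 (log2 fold change -0.01, SE 0.23, adjusted p = 0.993 in limma). rpl23 had a log2 fold change of 0.29, with overlapping groups.

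A list of ribosomal protein and related genes that the symbol rule leaves out had a median log2 fold change of 0.31, against 0.28 for the family. Of 7 listed, 5 were in the table, with all 5 above 0, 3 higher without overlap (7.00% of all genes) and 0 called. Their median deviation was 0.14, 0.33 and 0.08 in DN-bmal1a libraries 1, 2 and 3, against -0.02, -0.23 and -0.31 in control libraries 1, 2 and 3, so that the groups did not overlap here, while for the family control library 1 lay among the DN-bmal1a libraries. faua, which encodes a small subunit protein fused to a ubiquitin-like domain, had 561, 780.0 and 556 CPM in DN-bmal1a, against 552, 512 and 453 CPM in the controls. gnb2l1 (rack1), a scaffold on the small subunit, had 1605, 1411 and 1409 CPM in DN-bmal1a, against 1394, 1138 and 1099 CPM in the controls. Both were parted by a narrow gap to control library 1. rsl24d1, an assembly factor that holds the place of Rpl24 in yeast, had 234, 304 and 305 CPM in DN-bmal1a, against 189.6, 183 and 159.7 CPM in the controls, a log2 fold change of 0.65 (SE 0.19, adjusted p = 0.283 in limma).

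Other mRNAs with a TOP motif in mammals, mostly translation factors, had a median log2 fold change close to that of the family. Their median deviation was 0.097, 0.19 and 0.081 in DN-bmal1a libraries 1 to 3, against 0.072, -0.14 and -0.21 in control libraries 1 to 3. The groups were parted by a narrow gap to control library 1, which for the family lay above DN-bmal1a libraries 1 and 3. Of 44 listed, 40 were in the table, with a median of 0.23, 31 above 0 and 0 called. At an unadjusted p under 0.05, 7 were higher (17.5%, against 3.10% of all genes) and 1 lower (8.12% of all genes), and groups did not overlap for 12 that were higher (30.0%, against 7.00%) and 1 that was lower (10.7% of all genes). eef1a1l1, an elongation factor that brings tRNA to the ribosome, had 8892, 9445 and 8595 CPM in DN-bmal1a, against 9099.6, 7309 and 6870.2 CPM in the controls, with control library 1 among the DN-bmal1a libraries. tpt1 and pabpc1a had log2 fold changes of 0.02 and -0.02, and npm1a, a nucleolar chaperone, one of 0.58 (SE 0.17, adjusted p = 0.292 in limma).

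Ribosome assembly genes had library medians that did not overlap between the groups. The list holds processing factors of ribosomal RNA, assembly GTPases and subunits of RNA polymerase I, and 95 of 107 were in the table. Their median was 0.39, 77 were above 0, and groups did not overlap for 32 that were higher (33.7%, against 7.00% of all genes) and 1 that was lower (npm1b; 10.7% of all genes). limma called 0 of them and found 19 higher (20%, against 3.10% of all genes) and 1 lower (8.12% of all genes) at an unadjusted p under 0.05. eif6, which keeps the large subunit from joining too early, had 425, 547 and 473 CPM in DN-bmal1a, against 263, 279.7 and 238 CPM in the controls, a log2 fold change of 0.88 (SE 0.17, adjusted p = 0.185 in limma). bop1, a large subunit processing factor, had 112, 147 and 143 CPM in DN-bmal1a, against 59.0, 76.7 and 47.1 CPM in the controls, and nat10, which acetylates ribosomal RNA, had 183, 242 and 129 CPM in DN-bmal1a, against 73.6, 111 and 89.7 CPM in the controls. Both lay wholly above the controls, and DESeq2 called bop1 (adjusted p = 0.0102), nat10 (adjusted p = 0.0457) and cirh1a, or utp4, a small subunit processing factor (adjusted p = 0.0210), while limma gave adjusted p of 0.223, 0.280 and 0.242. These were 3 of the 95 assembly genes, beside 187 of the 10022 genes that DESeq2 tested (1.87%).

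By library, the median deviation of the assembly genes was 0.10, 0.31 and 0.38 in DN-bmal1a libraries 1, 2 and 3, against -0.19, -0.10 and -0.28 in control libraries 1, 2 and 3. Control library 1, which sat among the DN-bmal1a libraries for the ribosomal proteins, sat with the controls here. Mitochondrial ribosomal protein genes, whose products form the separate ribosome of mitochondria, did likewise, with 0.19, 0.28 and 0.32 in DN-bmal1a, against -0.28, -0.19 and -0.17 in the controls. The 68 mitochondrial genes had a median log2 fold change of 0.48, 57 above 0, 24 higher without overlap (35.3%, against 7.00% of all genes) and 0 called. The erythroid, endothelial, epidermal and neural marker sums given above separate the groups in the same libraries, and their part in these medians was not tested. Whether the assembly genes and the ribosomal proteins differ in fold change was not tested.

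**Figure D5:**
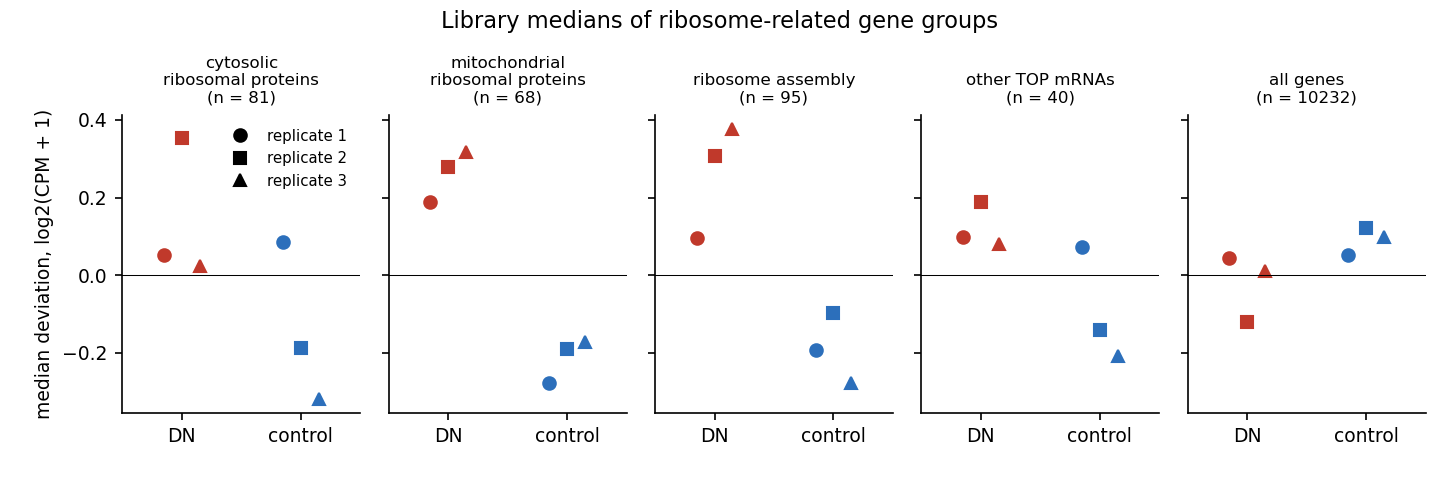
Median deviation from each gene's mean, log2(CPM + 1), in each library for 5 gene groups, with DN-bmal1a on the left and control on the right of each panel and a symbol for each replicate number. The groups separate for mitochondrial ribosomal proteins and ribosome assembly genes. They also separate, narrowly, for other TOP mRNAs (lowest DN-bmal1a 0.081, highest control 0.072). For all genes DN-bmal1a lies narrowly lower (highest DN-bmal1a 0.045, lowest control 0.051). Control library 1 overlaps the DN-bmal1a libraries for cytosolic ribosomal proteins (0.09).

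A list of genes of and around the mTOR pathway, which couples nutrients to ribosome production, gave no common direction. Of 45 listed, 33 were in the table, with a median of -0.09, 12 above 0 and 0 called. At an unadjusted p under 0.05, 2 were higher (3.10% of all genes) and 4 lower (8.12%), and groups did not overlap for 4 that were higher (7.00%) and 4 that were lower (10.7%). These 4 lower are 12.1% of the list, a share near that of all genes. The list was drawn widely and also held rps6ka1, rps6ka3a, rps6ka3b, myca, mycb and mycn, which are not core parts of the pathway. Of these, rps6ka1 and rps6ka3a were among the 4 lower and mycn among the 2 higher at the unadjusted threshold. mtor had 88.7, 98.1 and 80.4 CPM in DN-bmal1a, against 96.0, 124 and 83.9 CPM in the controls. tsc1a and tsc1b, which encode a brake on mTOR and are 2 of the 4 that lay lower without overlap, were chosen after their values were seen, with tsc1a at 3.50, 0 and 0.0178 CPM in DN-bmal1a, against 19.1, 6.59 and 10.8 CPM in the controls, and tsc1b at 21.1, 10.6 and 7.57 CPM in DN-bmal1a, against 36.8, 28.4 and 32.4 CPM in the controls (limma adjusted p of 0.283 and 0.370). For tsc1a, 0.0178 CPM is the smallest value above 0 in DN-bmal1a library 3, so that this gene stood near the floor. Every DN-bmal1a library also lacked reads for more genes than any control did. eif4ebp1, an mTOR target that holds back translation, had 229, 292 and 263 CPM in DN-bmal1a, against 218, 199 and 197 CPM in the controls, at a log2 fold change of 0.34 and a limma adjusted p of 0.501.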

How the data were processed

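Total RNA of GFP-positive cells sorted from dissected CHT at 36 hpf was sequenced in 6 libraries (RNeasy, SMARTer Ultra Low and Nextera XT kits). Per the authors' methods and processing notes, reads were demultiplexed with bcl2fastq 2.20.0, mapped with STAR 2.7.0f, counted per gene with HTSeq 0.9.1 and normalized with edgeR. The versions are those of the notes, which give edgeR 3.38.4, while the methods name another edgeR version. The methods name genome build danRer10 and the notes GRCz11, so that no coordinates are given. The deposited signal values are CPM of TMM-scaled libraries for 10232 genes, and the filter on low counts is not given in the sources used here. Columns were assigned by sample title, since the library names of the controls repeat the titles of the DN-bmal1a samples. The tests were planned for plain CPM and kept on the log scale. Whole reads (within 0.02 reads) were recovered from 100% of the values.

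The members and lists were chosen with earlier results of these data known. Of the 81 symbols, 80 matched a RefSeq symbol and 81 a symbol or synonym, and no sequence of these genes was used. limma 3.58.1 (eBayes with a trend, R 4.3.3) was fitted to log2(CPM + 1) over all genes, with Benjamini-Hochberg adjustment. The added 1 understates changes of low genes. The alternatives tried were adding 0.1 or 10 in place of 1, 2 low-value filters, 3 scalings, no trend, array weights, a replicate block, each library left out, no fold threshold, and edgeR 4.0.16 quasi-likelihood and DESeq2 1.42.0 on the recovered reads. The paralogue ratios and a restriction to members of at least 100 CPM were added after the values had been seen. Genes named were members called, the largest non-overlapping, the most and least abundant, paralogue pairs, Diamond-Blackfan anaemia and MDM2 counterparts and the stalk. Other members and list genes given with values were chosen after their values were seen. The values of some listed genes are not reported here. The fits were tested on simulated data with known changes. Those data had less spread than the genes as a whole had here, and larger changes than those of the family. That test therefore does not show how the fits perform on changes as small as these. Chi-square tests of reads found no pair of replicates alike within counting error. The precision given by read counts covers counting error only, since SMARTer libraries carry no molecular identifiers, while limma's intervals rest on the spread between libraries.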

Additional observations from a re-analysis of the deposited data

How the results depend on the processing

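No ribosomal protein gene was called under any alternative, and the median fold change of the 81 genes stayed above 0 except where each library was centred on the family, which sets it to -0.00041 by construction. The depth of at least 3236 reads per library for 79 of the members left the spread between 3 libraries a group as the limit, and sampling of molecules from about 5000 cells before amplification was not estimated. The median of all genes moved from -0.13 as deposited to 0.04 under quantile normalization, where the members' median was 0.30 and 0.27 above that of all genes, against 0.41 above it as deposited. The number of all genes called, 1 in the limma fit used here, was 7 without a trend and 22 with array weights. It was 0 with edgeR's quasi-likelihood test, 187 with DESeq2 (3 of them ribosome assembly genes) and 0 to 1 with 1 library left out. The paper, with its own edgeR test at the same thresholds, lists more differential genes than limma or the quasi-likelihood test called here. Members higher at an unadjusted p under 0.05, 7 as reported, numbered 22 after rescaling to the same sum, 14 after quantile normalization, 0 after family centring, 1 without a trend, 19 with array weights, 23 with DESeq2 and 0 to 33 with 1 library left out. Members higher without overlap, 20 as reported, numbered 31 after rescaling, 10 after family centring and 20 to 69 with 1 library left out. Members lower without overlap, 0 as reported, numbered 10 after family centring and 0 to 1 with 1 library left out. Apart from DESeq2, the shares of all genes at the unadjusted threshold under these alternatives are not given here. Nor is the share of all genes higher without overlap after rescaling. The shares after family centring are no background, since the members set that scale. Those counts of members therefore lack a background, while those without overlap and with 1 library left out have the shares given above. The causes of these differences between tools were not tested.

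Deviations of same-numbered libraries from their group means correlated over all genes at -0.07, -0.01 and 0.00 for numbers 1, 2 and 3. Over the 81 members, which move together, they correlated at 0.08, -0.26 and 0.57. Over all genes there was thus no sign that replicate numbers pair the samples, but this check cannot exclude a shared clutch or day. In limma, a block for the replicate number left 1 gene and 0 members called, and 5 members were higher at an unadjusted p under 0.05. The quasi-likelihood test with the block called 0 genes, and 4 members were higher at that threshold. The shares of all genes at that threshold with the block are not given here, so that both counts lack a background. The log2 fold change of rps27.2 in the quasi-likelihood fit with the block was 0.0025.

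Family centring left 40 members above 0 and gave list medians of 0.025 for ribosomal proteins outside the symbol rule, -0.053 for other TOP mRNAs, 0.10 for ribosome assembly and -0.38 for the mTOR pathway. Among the members named by rule that were above 0 as reported, it put below 0 rpl10 (-0.19), rpl10a (-0.11), rpl15 (-0.11), rpl22 (-0.0052), rpl3 (-0.074), rpl35a (-0.0039), rpl5a (-0.28), rpl7 (-0.091), rpl7l1 (-0.0050), rplp2l (-0.084), rps10 (-0.0099), rps19 (-0.095), rps2 (-0.24), rps20 (-0.15), rps26 (-0.060), rps27.1 (-0.18), rps28 (-0.022) and rps8a (-0.13). Members near 0 turned sign elsewhere. rpl11 was at 0.055 after rescaling, 0.018 in the quasi-likelihood test and 0.040 in DESeq2, rplp0 at 0.042 after rescaling, 0.053 after quantile normalization and 0.015 with array weights, rpl5a at -0.014 after quantile normalization and -0.021 with array weights, rps27.2 at 0.061 after rescaling and 0.037 after quantile normalization, and rps8b at 0.63 after quantile normalization. With 1 library left out, rpl10 ran from -0.039 to 0.29, rpl11 from -0.23 to 0.18, rpl5a from -0.080 to 0.078, rplp0 from -0.11 to 0.13, rps27.2 from -0.21 to 0.34 and rps2 from -0.074 to 0.16, and the log2 ratio of rpl22l1 over rpl22 from -0.051 to 0.10, of rpl7l1 over rpl7 from -0.032 to 0.25 and of rps27.2 over rps27.1 from -0.29 to 0.25.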
